A study of Mus musculus with 9 samples.

Results

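The 10 genes described here encode the transforming growth factor beta (TGF-β) ligands Tgfb1, Tgfb2 and Tgfb3, their receptors Tgfbr1, Tgfbr2 and Tgfbr3, and the latent TGF-β binding proteins Ltbp1, Ltbp2, Ltbp3 and Ltbp4. They were chosen by gene symbol, with earlier results of these data known, and are 10 of the 24008 genes with reads counted in the liver libraries. All 10 passed the filter on low counts, as did 14379 genes in all. TGF-β is secreted bound to its own propeptide, which keeps it inactive, and latent binding proteins tie this complex to fibrillin microfibrils of the extracellular matrix. Integrins and proteases release the active ligand, which binds the type II receptor, and this receptor phosphorylates the type I receptor, which passes the signal to SMAD2 and SMAD3. In liver the pathway is best known for turning hepatic stellate cells into collagen-producing myofibroblasts during fibrosis.

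The study asked how loss of IRF4 in skeletal muscle, and return of the secreted protein FSTL1 to that muscle, bear on non-alcoholic steatohepatitis (NASH). Whole liver RNA was sequenced from 3 groups with 3 libraries each, and all mice received a high fat and high carbohydrate diet that induces NASH. Flox mice, labelled WT, carry the floxed Irf4 allele without its deletion. F4MKO mice lack Irf4 in skeletal muscle, through a Cre that is active in muscle (Myl-Cre) on a C57BL/6J background. F4MKO+FSTL1 mice are F4MKO mice whose gastrocnemius was injected with an AAV8 vector that expresses Flag-tagged FSTL1 from the muscle creatine kinase promoter. According to the methods of the study, Flox and F4MKO mice received AAV-GFP by the same route, whereas the labels name no vector. The study gives more than one length for the diet, and the labels give neither age nor sex.

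The libraries held from 20656976 to 24322984 reads on genes. The deletion is in muscle, so liver Irf4 does not check it. The Irf4 count was between 92 and 132 in 8 libraries and 10 in F4MKO+FSTL1 replicate 1. F4MKO replicate 1 stood apart in tissue markers. Its summed hepatocyte markers (8 genes, led by Alb, Apoa1 and Ttr) reached 64257 CPM (counts scaled to library size), against 76060 to 95341 CPM in the other 8 libraries, and its summed cholangiocyte markers were the highest at 436.5 CPM. Its TMM scaling factor was 1.17, the largest of all libraries. Of 5 skeletal muscle genes, Ckm and Acta1 were at 0 in 8 of 9 libraries, Myh4 in 7 of 9 and Tnnt3 in 2 of 9. The other, Mylpf, was at 0 in no library, with 15 to 33 counts.

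The 250 bases before the annotated start site are shown for the ligands with the highest and the lowest level per length, Tgfb1 and Tgfb2, and for Ltbp2 and Ltbp3, the binding proteins with the smallest adjusted p-values below. The sequences are from RefSeq (GRCm38.p6, 5′ to 3′ on the strand of the gene), and 8 of the 10 genes had an entry, Tgfb3 and Tgfbr3 not. The windows lie at chr7:25686752-25687001 on the plus strand for Tgfb1, at chr1:186705990-186706239 on the minus strand for Tgfb2, at chr12:84876492-84876741 on the minus strand for Ltbp2 and at chr19:5740650-5740899 on the plus strand for Ltbp3. Capitals mark matches on either strand to 4 short motifs. They are the TATA box, searched as TATAAA, and the GC box bound by SP1, searched as GGGCGG. The others are the AP-1 site, searched as TGANTCA, and the CAGA box of SMAD-binding elements, searched as CAGACA.
Tgfb1: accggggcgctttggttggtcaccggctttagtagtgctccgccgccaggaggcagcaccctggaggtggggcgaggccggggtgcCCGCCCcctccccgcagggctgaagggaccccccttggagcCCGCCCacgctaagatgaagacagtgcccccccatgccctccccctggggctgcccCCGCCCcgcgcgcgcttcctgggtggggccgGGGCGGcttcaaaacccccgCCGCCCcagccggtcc
Tgfb2: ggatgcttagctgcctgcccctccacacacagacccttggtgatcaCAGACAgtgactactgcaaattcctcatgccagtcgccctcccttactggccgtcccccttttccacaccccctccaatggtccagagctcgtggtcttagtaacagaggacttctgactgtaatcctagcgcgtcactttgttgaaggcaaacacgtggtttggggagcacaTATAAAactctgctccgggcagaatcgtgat
Ltbp2: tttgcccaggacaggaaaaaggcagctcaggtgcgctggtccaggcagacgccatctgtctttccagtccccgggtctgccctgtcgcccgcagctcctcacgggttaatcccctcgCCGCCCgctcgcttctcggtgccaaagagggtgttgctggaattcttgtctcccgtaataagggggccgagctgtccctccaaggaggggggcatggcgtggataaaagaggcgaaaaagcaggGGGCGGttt
Ltbp3: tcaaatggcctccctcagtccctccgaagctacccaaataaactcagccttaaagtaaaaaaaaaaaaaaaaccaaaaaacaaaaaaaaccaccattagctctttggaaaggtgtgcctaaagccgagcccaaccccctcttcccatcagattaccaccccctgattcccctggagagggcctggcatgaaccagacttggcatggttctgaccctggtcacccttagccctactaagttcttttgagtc
The Tgfb1 window held 5 GC boxes, no match to the other letters, and 75.2% G and C. The Tgfb2 window held 53.6% G and C, with 1 TATA box that begins 31 bases before the start site and 1 CAGA box that begins 204 bases before it. The Ltbp2 window held 2 GC boxes, and the Ltbp3 window held none of the 4 motifs. Of 32851 mouse promoter windows of the same length, 32.7% held a GC box, 12.4% a TATA box, 17.1% a CAGA box and 6.75% an AP-1 site. These matches describe the letters of the windows and were not tested for function.

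Levels of different genes were compared as CPM per kilobase of merged exons. In Flox livers the mean level per length was highest for Ltbp4, at 6.26, followed by Tgfbr2 at 4.67, Tgfbr1 at 4.09 and Tgfb1 at 3.16. None of these neighbours overlapped between libraries. Tgfbr3, a co-receptor also called betaglycan, followed at 1.06. Tgfb3 (0.578) overlapped with Ltbp1 (0.474) and Ltbp1 with Ltbp3 (0.448), and the lowest were Ltbp2 (0.234) and Tgfb2 (0.190), whose ranges also overlapped. In all 3 groups the first 6 places were the same, with Ltbp2 and Tgfb2 last, and Ltbp1 and Ltbp3 exchanged places in F4MKO and F4MKO+FSTL1 livers. In F4MKO livers Tgfbr2 and Tgfbr1 overlapped, and so did all neighbours from Tgfbr3 down. In F4MKO+FSTL1 livers Ltbp4 overlapped with Tgfbr2 and Tgfbr2 with Tgfbr1, as did neighbours among Ltbp3, Ltbp1, Ltbp2 and Tgfb2. The length used matters for Tgfb1, whose merged exons span 5042 bases and whose longest transcript has 2573. By longest transcript Tgfb1 took rank 2 in every group, and 4 of 10 genes kept their rank in F4MKO livers.

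Tgfb1 encodes the ligand best known from fibrosis and immune regulation, and lies on chromosome 7 of GRCm38 from 25687002 to 25705077. Its read counts were 387, 313 and 398 in Flox livers, 579, 407 and 423 in F4MKO livers and 268, 245 and 251 in F4MKO+FSTL1 livers. Flox and F4MKO livers overlapped after scaling, and every F4MKO+FSTL1 liver lay below every F4MKO liver. The level was 15.9 ± 2.68 CPM (SD, n = 3) in Flox, 18.1 ± 2.03 CPM (SD, n = 3) in F4MKO and 12.5 ± 0.669 CPM (SD, n = 3) with FSTL1. The log2 fold change against F4MKO livers was -0.54 with FSTL1 (SE 0.14, adjusted p = 0.0187 by edgeR's quasi-likelihood test), which is a 1.46-fold difference and below the fold threshold of 1.5. Tgfb1 passed that threshold too without F4MKO replicate 2 (-0.59, adjusted p = 0.0285 by edgeR) or F4MKO replicate 3 (-0.59, adjusted p = 0.0237 by edgeR).

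Tgfb2 encodes a ligand that depends on betaglycan for high-affinity receptor binding, and lies on chromosome 1 from 186622792 to 186705989. Its read counts were 27, 34 and 16 in Flox livers, 97, 36 and 58 in F4MKO livers and 11, 9 and 21 in F4MKO+FSTL1 livers. All F4MKO livers lay above all others, and F4MKO replicate 1 was the highest library. The level was 1.10 ± 0.353 CPM (SD, n = 3) in Flox, 2.42 ± 0.966 CPM (SD, n = 3) in F4MKO and 0.681 ± 0.362 CPM (SD, n = 3) with FSTL1. Tgfb2 fell in F4MKO+FSTL1 compared with F4MKO livers, with a log2 fold change of -1.84 (SE 0.42, adjusted p = 0.011 by edgeR's quasi-likelihood test). This call was lost without F4MKO+FSTL1 replicate 2 (adjusted p = 0.0541 from the same test).

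Tgfb3, a ligand best known from palate development and scarless repair, lies on chromosome 12 from 86056745 to 86079041. Its counts were 38, 53 and 45 in Flox livers, 119, 80 and 83 in F4MKO livers and 31, 28 and 39 in F4MKO+FSTL1 livers. The F4MKO livers lay above all others, while the ranges of Flox and F4MKO+FSTL1 livers overlapped. The level was 1.95 ± 0.242 CPM (SD, n = 3) in Flox, 3.62 ± 0.507 CPM (SD, n = 3) in F4MKO and 1.61 ± 0.373 CPM (SD, n = 3) with FSTL1. Tgfb3 fell in F4MKO+FSTL1 compared with F4MKO livers, with a log2 fold change of -1.17 (SE 0.22, adjusted p = 0.00467 by edgeR's quasi-likelihood test), and kept this call without any single library. Of its exon bases, 12.4% are shared with genes on the opposite strand, and the sources used here do not say whether reads were counted by strand.

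The share of Tgfb1 in the ligand RNA was lower, and that of Tgfb3 higher, in F4MKO livers than in both other groups. Tgfb1 made up 74.2 to 83.1% of ligand RNA per length in Flox livers, 68.9 to 73.0% in F4MKO livers and 76.7 to 83.2% in F4MKO+FSTL1 livers. Tgfb3 made up 12.1 to 18.7%, 20.7 to 21.4% and 14.2 to 17.8% in the same order. F4MKO livers overlapped with neither other group in these shares, and Flox and F4MKO+FSTL1 livers overlapped with each other. Tgfb2 made up 2.91 to 7.02%, 5.62 to 10.04% and 2.66 to 5.58%, with an overlap between Flox and F4MKO livers. By longest transcript the share of Tgfb1 was 84.5 to 90.4%, 80.6 to 83.8% and 86.2 to 90.5%, where again only F4MKO livers overlapped with neither other group. Whether the fold changes of the ligands differ from each other was not tested. Over the 9 libraries, the genes whose log2 CPM followed Tgfb1 most closely were Ccl3 (Pearson r = 0.98), Cd83 (0.97) and Plekho2 (0.97). For Tgfb2 they were Pvt1 (Pearson r = 0.98), Mcm5 (0.98) and Rhbdf1 (0.97), and for Tgfb3 they were Htra3 (0.99), Cstb (0.99) and Slc12a8 (0.98). These correlations include the differences between groups and are a description of 9 libraries, the best of all genes tested.

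**Figure D1:**
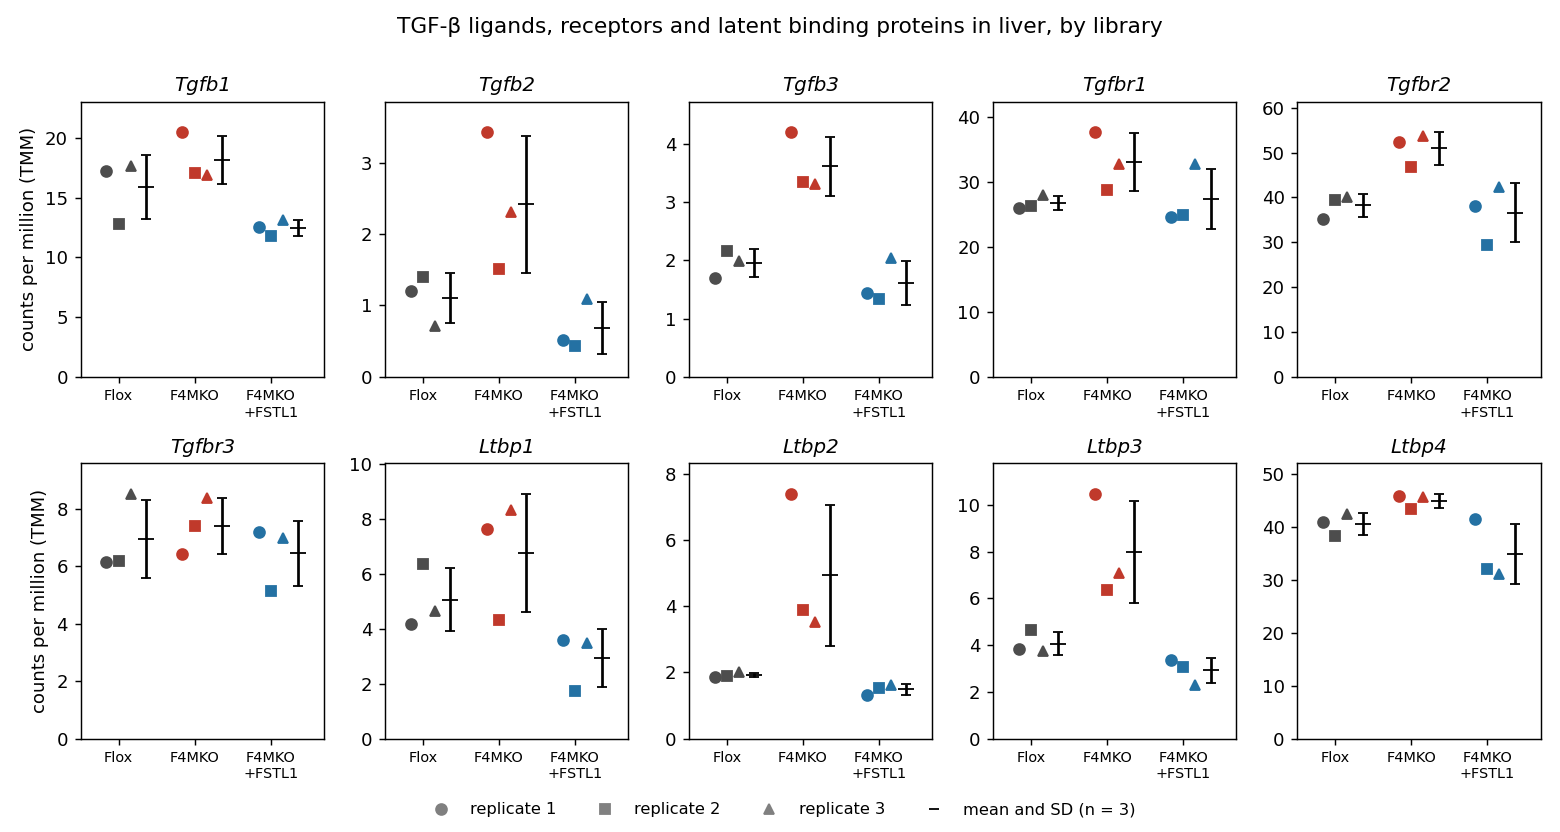
Level of each of the 10 genes in each library in CPM after TMM scaling, on linear axes that start at 0, with replicates as separate symbols and the mean and SD of 3 libraries beside them. F4MKO livers lay above all others for Tgfb2, Tgfb3, Tgfbr2, Ltbp2, Ltbp3 and Ltbp4, and F4MKO replicate 1 was the highest library for 7 of the 10 genes. Among the F4MKO libraries alone, replicate 1 was the highest for the same 7 genes and for 36.2% of all genes tested.

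No receptor passed the test in any comparison with all 9 libraries in the fit. Tgfbr1, the type I receptor kinase, lies on chromosome 4 from 47353222 to 47414931 and had counts of 581, 640 and 631 in Flox livers, 1063, 684 and 819 in F4MKO livers and 526, 516 and 625 in F4MKO+FSTL1 livers. After scaling, F4MKO livers lay above Flox livers and overlapped with F4MKO+FSTL1 livers, with a log2 fold change of -0.27 between the latter groups (SE 0.13, adjusted p = 0.165 by edgeR's quasi-likelihood test). Tgfbr2, the type II receptor that binds the ligand first, lies on chromosome 9 from 116084293 to 116175360 and had counts of 791, 961 and 904, then 1480, 1117 and 1344, then 814, 612 and 811 in the same groups. Its F4MKO livers lay above both other groups, and its level was 38.3 ± 2.61 CPM (SD, n = 3) in Flox, 50.9 ± 3.65 CPM (SD, n = 3) in F4MKO and 36.6 ± 6.59 CPM (SD, n = 3) with FSTL1. Tgfbr2 differed by -0.48 on the log2 scale between F4MKO+FSTL1 and F4MKO livers (SE 0.13, adjusted p = 0.022 by edgeR's quasi-likelihood test), at a fold of 1.39, below the threshold. It passed without F4MKO+FSTL1 replicate 3 (-0.59, adjusted p = 0.0118 by edgeR). Tgfbr3, on chromosome 5 from 107106570 to 107289629, had counts between 107 and 210, and its groups overlapped in every comparison. It shares 297 exon bases with an overlapping gene on its own strand, so its count is less certain. The shares of receptor RNA overlapped between groups, with Tgfbr2 at 46.7 to 49.2% per length in Flox, 48.7 to 51.1% in F4MKO and 44.0 to 48.9% in F4MKO+FSTL1 livers.

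Among the latent binding proteins, Ltbp2 and Ltbp3 moved most. Ltbp2 binds fibrillin but, unlike the other 3, not the latent ligand itself, and lies on chromosome 12 from 84783212 to 84876532. Its counts were 42, 46 and 45 in Flox livers, 209, 93 and 88 in F4MKO livers and 28, 32 and 31 in F4MKO+FSTL1 livers. The 3 groups did not overlap in any comparison, and within F4MKO the first library held the highest value. The level was 1.92 ± 0.0686 CPM (SD, n = 3) in Flox, 4.93 ± 2.14 CPM (SD, n = 3) in F4MKO and 1.49 ± 0.161 CPM (SD, n = 3) with FSTL1. Ltbp2 fell in F4MKO+FSTL1 compared with F4MKO livers, with a log2 fold change of -1.73 (SE 0.29, adjusted p = 0.00286 by edgeR's quasi-likelihood test), and it was -1.32 without F4MKO replicate 1, still past the threshold. Of its exon bases, 9.34% are shared with a gene on the opposite strand.

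Ltbp3, which is needed for secretion and matrix storage of latent TGF-β in bone and other tissues, lies on chromosome 19 from 5740904 to 5758532. Its counts were 86, 113 and 84 in Flox livers, 296, 152 and 178 in F4MKO livers and 72, 64 and 44 in F4MKO+FSTL1 livers. Again no groups overlapped, with F4MKO highest and F4MKO+FSTL1 lowest. The level was 4.06 ± 0.493 CPM (SD, n = 3) in Flox, 7.98 ± 2.19 CPM (SD, n = 3) in F4MKO and 2.91 ± 0.552 CPM (SD, n = 3) with FSTL1. Ltbp3 fell in F4MKO+FSTL1 compared with F4MKO livers, with a log2 fold change of -1.45 (SE 0.22, adjusted p = 0.00206 by edgeR's quasi-likelihood test), and kept this call without any single library.

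Ltbp1, the first described carrier of latent TGF-β1, lies on chromosome 17 from 75005568 to 75392512. Its counts were 94, 155 and 105 in Flox livers, 216, 103 and 209 in F4MKO livers and 77, 36 and 67 in F4MKO+FSTL1 livers. F4MKO replicate 2 lay within the Flox range, and all F4MKO+FSTL1 livers lay below both other groups. Ltbp1 fell in F4MKO+FSTL1 compared with F4MKO livers, with a log2 fold change of -1.20 (SE 0.31, adjusted p = 0.0188 by edgeR's quasi-likelihood test). This call rested on single libraries, with an adjusted p of 0.068 without F4MKO replicate 1, 0.0538 without F4MKO replicate 3 and 0.071 without F4MKO+FSTL1 replicate 2 by the same test. Ltbp4, which also guides elastic fibre assembly, lies on chromosome 7 from 27305136 to 27337692 and had the highest mean level per length in every group. Its counts were 916, 935 and 954 in Flox livers, 1294, 1037 and 1141 in F4MKO livers and 886, 667 and 595 in F4MKO+FSTL1 livers. All F4MKO livers lay above all others after scaling, by a small margin. The log2 fold change of Ltbp4 in F4MKO+FSTL1 compared with F4MKO livers was -0.37 (SE 0.11, adjusted p = 0.0385 by edgeR's quasi-likelihood test), at a fold of 1.29. Ltbp4 made up 81.6 to 85.8% of binding protein RNA per length in Flox, 71.9 to 81.0% in F4MKO and 86.1 to 88.1% in F4MKO+FSTL1 livers, without overlap between any of the groups.

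**Figure D2:**
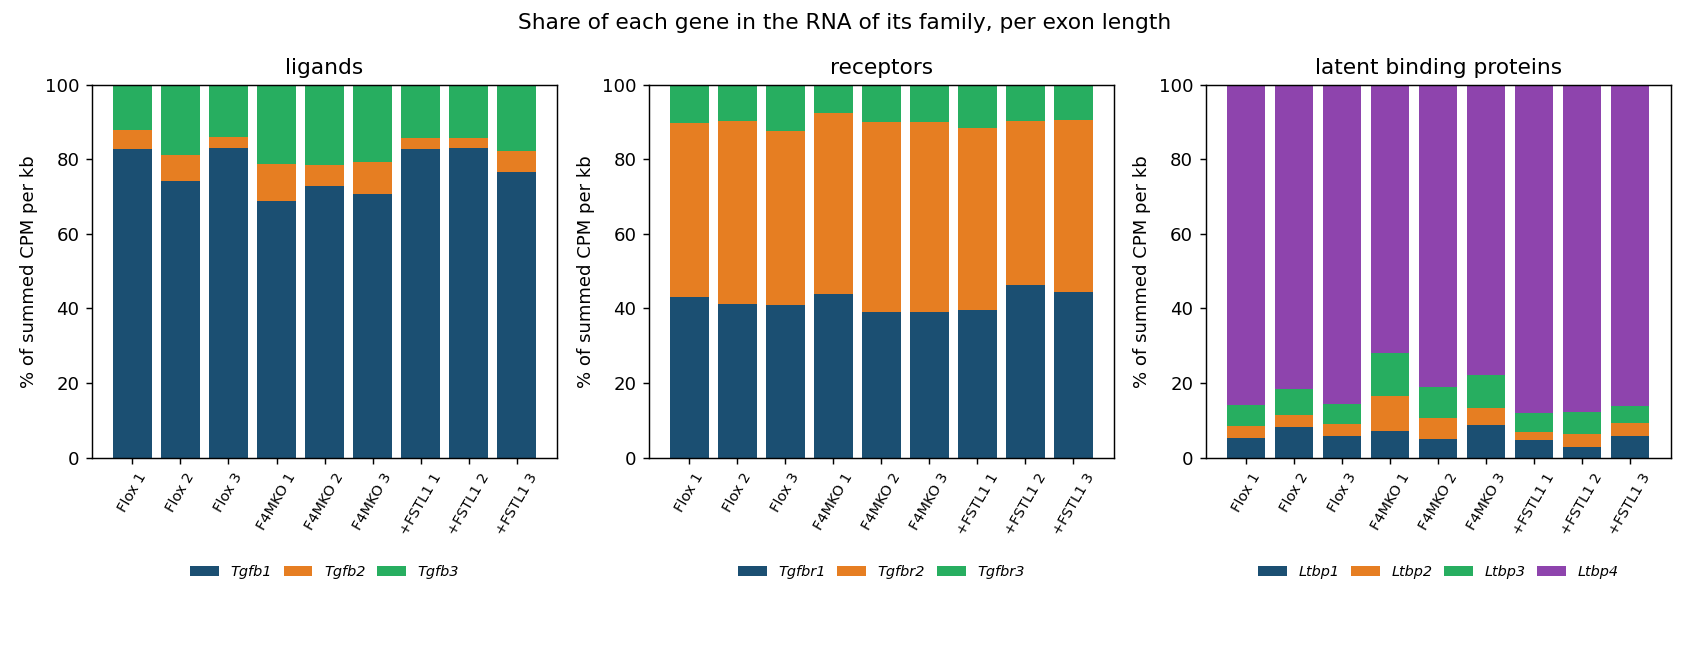
Share of each gene in the summed CPM per kilobase of its family, as stacked bars from 0 to 100% for each of the 9 libraries, in panels for ligands, receptors and latent binding proteins. Tgfb1 held 68.9 to 73.0% of ligand RNA in F4MKO livers and at least 74.2% in every other liver, and Ltbp4 held at most 81.0% of binding protein RNA in F4MKO livers and at least 81.6% in the others.

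The first comparison asked whether loss of muscle IRF4 moved these genes in liver. None of the 10 passed the test in F4MKO compared with Flox livers (edgeR's quasi-likelihood test, adjusted p under 0.05 and a fold change above 1.5), where 0.271% of all genes passed and 0.202% did so in the higher direction. At an unadjusted p under 0.05 there were 6 of 10 genes, all higher, against 9.35% of all genes, and 4 without F4MKO replicate 1, against 5.50% of all genes. DESeq2 called 3 of the 10 as higher, and 1.68% of all genes. All 10 genes had a log2 fold change above 0, as for 49.4% of all genes, with a median of 0.41 against -0.0030 over all genes. Groups did not overlap, with F4MKO higher, for 7 of the 10 genes and for 11.7% of all genes. Ltbp2 had the largest log2 fold change, 1.37 (SE 0.28, adjusted p = 0.061 by edgeR's quasi-likelihood test). Tgfb2 followed at 1.13 (SE 0.39, adjusted p = 0.183 from the same test). Ltbp3 had 0.97 (SE 0.21, adjusted p = 0.0651 from the same test) and Tgfb3 0.89 (SE 0.21, adjusted p = 0.0864 from the same test). For the other 6 genes the log2 fold change lay between 0.09 for Tgfbr3 and 0.42 for Ltbp1. DESeq2 called Tgfb3, Ltbp2 and Ltbp3, with adjusted p-values of 0.0347, 0.00212 and 0.00539. For Ltbp2, Tgfb2, Tgfb3 and Ltbp3, F4MKO replicate 1 exceeded the Flox mean more than the other F4MKO libraries did. For Ltbp2 it did so by 3.85-fold, against 2.03-fold and 1.83-fold in the others. Without F4MKO replicate 1 the log2 fold change was 0.95 for Ltbp2, 0.79 for Tgfb2, 0.77 for Tgfb3 and 0.73 for Ltbp3.

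The second comparison asked whether FSTL1 in muscle moved them in F4MKO mice. With FSTL1, 5 of the 10 genes fell, namely Tgfb2, Tgfb3, Ltbp1, Ltbp2 and Ltbp3, where 14.4% of all genes passed in either direction and 11.2% fell. A further 3 (Tgfb1, Tgfbr2 and Ltbp4) had an adjusted p under 0.05 with a smaller fold, and Tgfbr1 and Tgfbr3 passed neither threshold. All 10 had a log2 fold change below 0, as for 48.6% of all genes, with a median of -0.86 against 0.01 over all genes. Groups did not overlap, with F4MKO+FSTL1 lower, for 8 of the 10 genes and 21.1% of all genes. In a test against a fold of 1.5 itself, Ltbp2 and Ltbp3 passed and the other 3 did not. The number called was 4 without F4MKO replicate 1, 5 without F4MKO+FSTL1 replicate 1 and 3 without F4MKO+FSTL1 replicate 2. The shares of all genes above belong to the fit with 9 libraries and were not taken for these smaller fits.

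The third comparison set F4MKO+FSTL1 against Flox livers. None of the 10 genes passed the test by edgeR's quasi-likelihood test or by DESeq2, where 0.00695% of all genes passed with edgeR. Tgfb1 and Ltbp1 had an unadjusted p under 0.05, 2 of the 10, as did 9.12% of all genes in the lower direction. Tgfb1 had a log2 fold change of -0.35 (SE 0.14, adjusted p = 0.305 by edgeR's quasi-likelihood test) and Ltbp1 one of -0.79 (SE 0.31, adjusted p = 0.307 from the same test). The change was below 0 for 9 of the 10 genes, as for 50.1% of all genes, with a median of -0.32, and 0.03 for Tgfbr1. F4MKO+FSTL1 livers lay below Flox livers without overlap for Ltbp1, Ltbp2 and Ltbp3, as they did for 10.7% of all genes. The 3 comparisons share libraries in pairs, so their values are not independent of each other. Each library is one liver sample, and nothing more in the labels tells how the samples were taken, so p-values measure the spread between these samples.

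**Figure D3:**
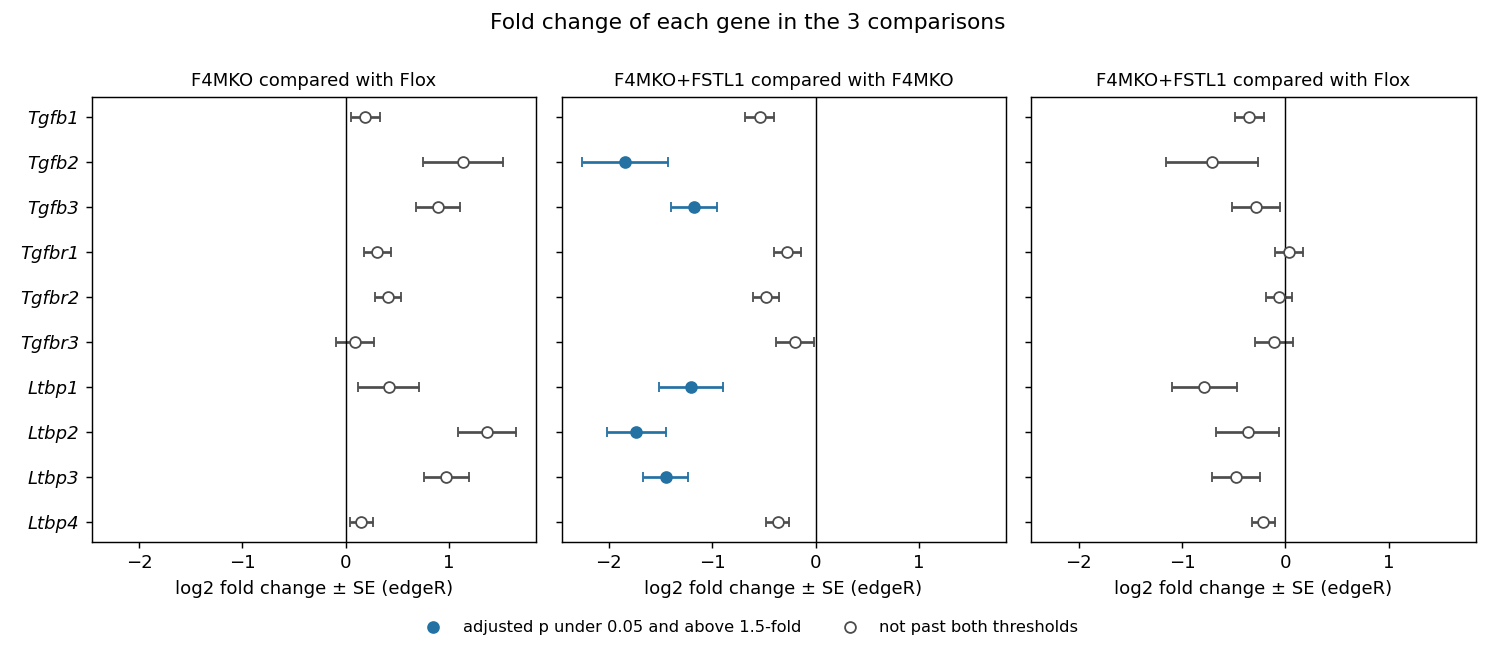
Log2 fold change of each gene with its standard error from edgeR, in panels for the 3 comparisons, with genes past both thresholds as filled points. All 10 genes lay above 0 in F4MKO compared with Flox livers with none past the thresholds, and all 10 lay below 0 in F4MKO+FSTL1 compared with F4MKO livers with 5 past them.

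The other genes of the pathway were read from 4 lists with 49 genes, of which 43 were tested. These lists, too, were chosen with earlier results of these data known. Against F4MKO livers, 16 of the 43 fell with FSTL1 and 0 rose (edgeR's quasi-likelihood test), where 11.2% of all genes fell and 3.21% rose. Of the 12 tested genes known as induced by TGF-β, 10 fell, with a median log2 fold change of -1.30. The largest falls were those of the fibrillar collagen chains Col1a1 (-2.25), Col3a1 (-1.98) and Col1a2 (-1.63), the collagen crosslinking enzyme Lox (-2.16) and the metalloproteinase inhibitor Timp1 (-1.97). Their adjusted p-values lay between 0.000751 and 0.00649 by the same test. The 2 induced genes that did not pass, named after their values were seen, were the fibronectin gene Fn1 (-0.07) and the smooth muscle actin gene Acta2 (-0.70). Acta2 did pass once F4MKO+FSTL1 replicate 3 was left out, at -1.16 (SE 0.28, adjusted p = 0.0180 by edgeR). Col3a1 had 927, 988 and 1243 counts in Flox, 1961, 2102 and 3653 in F4MKO and 394, 454 and 691 in F4MKO+FSTL1 livers, each group listed from low to high, and no groups overlapped. The number of the 43 genes called was 10 without F4MKO replicate 1 and 8 without F4MKO+FSTL1 replicate 2, and the shares of all genes in these fits were not taken.

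Of the 12 tested genes of latent TGF-β activation and storage, 4 fell in this comparison, where 11.2% of all genes did. They were the fibrillins Fbn1 and Fbn2, to which latent complexes bind, the activator thrombospondin 1 (Thbs1) and the microfibril-associated Mfap4. The log2 fold change of Fbn1 was -1.48 (SE 0.20, adjusted p = 0.0014 by edgeR's quasi-likelihood test). Fbn2 had 1, 2 and 2 counts in F4MKO+FSTL1 livers, 12, 14 and 39 in F4MKO livers and 0, 6 and 10 in Flox livers, each group listed from low to high. Its ratio of pooled scaled counts in F4MKO+FSTL1 over F4MKO was 0.0968 (exact 95% interval 0.0304 to 0.238, counting error only). Fbn2 passed the filter on low counts only through the F4MKO libraries, where it was highest, which favours a fall, and without it 3 of 11 genes of this list and 15 of 42 pathway genes fell. Thbs1 had -1.65 (SE 0.42, adjusted p = 0.018 by edgeR's quasi-likelihood test) and lost its call without F4MKO+FSTL1 replicate 2. Mfap4 had -1.25 (SE 0.40, adjusted p = 0.0463 from the same test) and lost its call in 5 of the fits without a single library. Fbn2 lost its call without F4MKO replicate 1 and without F4MKO+FSTL1 replicate 1 or 2.

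Of the 7 other receptors, co-receptors and receptor-binding proteins tested, 1 fell, where 11.2% of all genes did. This was Acvrl1, the type I receptor ALK1 of endothelial cells, with a log2 fold change of -0.71 (SE 0.16, adjusted p = 0.0119 by edgeR's quasi-likelihood test), and its call was lost without F4MKO+FSTL1 replicate 2. Fkbp1a, which encodes the FKBP12 protein that binds type I receptors, had -0.39 (SE 0.11, adjusted p = 0.0279 from the same test), below the fold threshold. Of 12 genes of SMAD signalling and its inhibitors, 1 fell, against the same 11.2% of all genes. That gene was the TGF-β-induced inhibitor Pmepa1, at -0.98 (SE 0.26, adjusted p = 0.0203 from the same test). It lost its call without F4MKO replicate 1 and without F4MKO+FSTL1 replicate 1 or 2. Skil, a SMAD co-repressor that is itself a TGF-β target, had -0.49 (SE 0.12, adjusted p = 0.0148 from the same test), below the fold threshold. Median log2 fold changes were -0.09 for these receptors and receptor-binding proteins and -0.13 for the SMAD genes, against -0.45 for activation and storage. With 1 of 12 SMAD genes called against 10 of 12 induced genes, the difference between these lists was not tested.

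In F4MKO compared with Flox livers none of the 43 genes passed edgeR's quasi-likelihood test, where 0.202% of all genes rose. At an unadjusted p under 0.05 there were 18, all higher, against 9.35% of all genes, and 9 without F4MKO replicate 1, against 5.50%. DESeq2 called 5 as higher, and 1.68% of all genes. Of the 43, 38 had a log2 fold change above 0, among them all 12 induced genes, whose median was 0.85. The 2 genes of each list with the smallest p were Col3a1 (1.12, adjusted p = 0.0548) and Col1a2 (0.94, adjusted p = 0.061), Fbn1 (1.0, adjusted p = 0.0583) and the integrin subunit Itgav (0.37, adjusted p = 0.159), Acvrl1 (0.40, adjusted p = 0.243) and the activin receptor Acvr1b (0.28, adjusted p = 0.397), and the co-repressors Skil (0.37, adjusted p = 0.154) and Ski (0.40, adjusted p = 0.258), all by edgeR. In F4MKO+FSTL1 compared with Flox livers none of the 43 passed edgeR's test, 8 had an unadjusted p under 0.05, all lower, against 9.12% of all genes, and DESeq2 called 2 as lower, against 1.64%. The corresponding genes were Col3a1 (-0.86, adjusted p = 0.115), Col1a2 (-0.69, adjusted p = 0.157), the integrin subunit Itgb5 (-0.30, adjusted p = 0.22), the latency protein Nrros of macrophages (-0.40, adjusted p = 0.263), Acvrl1 (-0.31, adjusted p = 0.47), Fkbp1a (-0.20, adjusted p = 0.474), Smad3 (-0.35, adjusted p = 0.266) and Smad2 (0.18, adjusted p = 0.544), all by edgeR. Lists and members were described by counts and medians, and no test of a list was made.

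**Figure D4:**
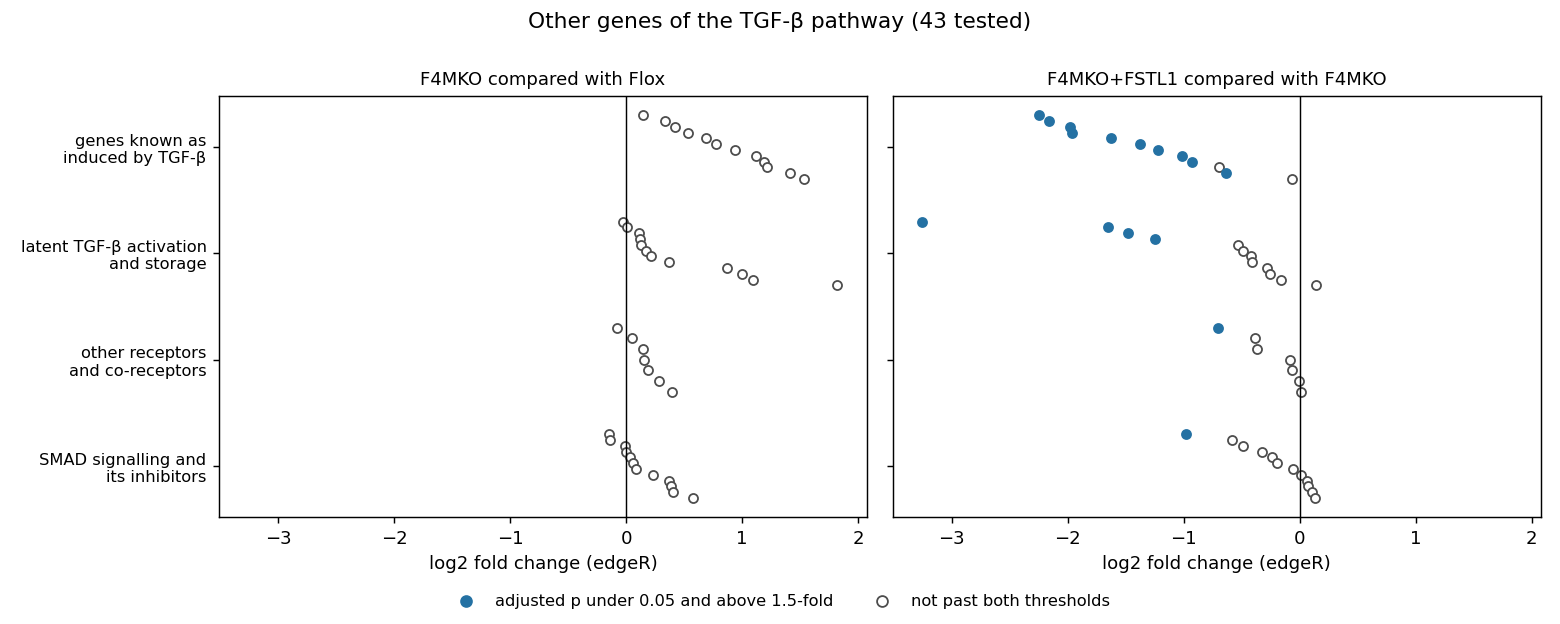
Log2 fold change from edgeR of the 43 other pathway genes, 1 point per gene sorted within 4 lists, for F4MKO compared with Flox livers and for F4MKO+FSTL1 compared with F4MKO livers, with genes past both thresholds as filled points. In the second panel 10 of 12 induced genes are filled and below 0, against 1 of 12 SMAD genes and 11.2% of all genes.

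The tissue was whole liver, so fewer cells of a type and less RNA per cell cannot be told apart. Summed markers of stellate cells and cholangiocytes were higher in F4MKO livers than in both other groups, those of macrophages overlapped between Flox and F4MKO livers, and those of endothelial cells overlapped throughout. The summed level of 10 stellate cell and fibroblast markers, led by Dcn, Reln and Rgs5, ran from 416.4 to 466.4 CPM in Flox, 473.3 to 570.4 CPM in F4MKO and 283.1 to 382.2 CPM in F4MKO+FSTL1 livers, and none of the 10 was at 0. Dcn alone had a mean of 255.5 CPM, 326.1 CPM and 188.2 CPM in these groups. In F4MKO compared with Flox livers 0 of the 10 were called, and 9 lay above 0, against 49.4% of all genes. There 3 were higher without overlap, against 11.7% of all genes. Between F4MKO+FSTL1 and F4MKO livers 4 of these 10 markers fell, against 11.2% of all genes, and 10 of 10 were below 0, against 48.6%, with a median log2 fold change of -0.59. The summed level of 10 macrophage markers, led by Cd5l, C1qa and Clec4f, ran from 529.6 to 838.5 CPM, 571.7 to 674.4 CPM and 311.4 to 499.7 CPM in the same order, and 6 of 10 fell in that comparison. In F4MKO compared with Flox livers 6 of the 10 macrophage markers had a log2 fold change above 0 and 4 below 0. Marco (-1.41) and Timd4 (-1.26), 2 of the 10, lay lower there without overlap, as did 1445 of 14379 genes. Neither passed the test. In F4MKO+FSTL1 compared with Flox livers 10 of 10 stellate cell markers and 10 of 10 macrophage markers lay below 0, against 50.1% of all genes. There 7 of the stellate cell markers and 8 of the macrophage markers were lower without overlap, against 10.7% of all genes, and 0 were called. The summed level of 8 cholangiocyte markers ran from 51.2 to 90.6 CPM, 163.0 to 436.5 CPM and 36.4 to 54.7 CPM. Most of this sum came from Spp1, which macrophages also express. Of 6 tested cholangiocyte markers 2 rose in F4MKO compared with Flox livers, where 0.202% of all genes did, and 5 fell in F4MKO+FSTL1 compared with F4MKO livers. Sox9 and Epcam had the next most counts in this list, and Cftr was at 0 in 1 library. The summed level of 10 endothelial markers, led by Stab2, Clec4g and Stab1, overlapped between groups (305.4 to 377.2 CPM, 246.2 to 315.7 CPM and 276.4 to 333.6 CPM), and 0 of 10 were called in any comparison. The 8 lymphocyte markers, led by Cd79a, Nkg7 and Cd8a, summed to between 3.65 and 10.5 CPM over all libraries, with 0 called in any comparison. Of all genes, 0.271% were called in the first comparison, 14.4% in the second and 0.00695% in the third. Of the 8 hepatocyte markers, 1 rose in F4MKO+FSTL1 compared with F4MKO livers (Serpina1a, 0.68, SE 0.15, adjusted p = 0.0098 by edgeR), where 3.21% of all genes rose, and 4 lay higher without overlap, against 18.0% of all genes. The part of these marker changes in the levels of the 10 genes was not tested.

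**Figure D5:**
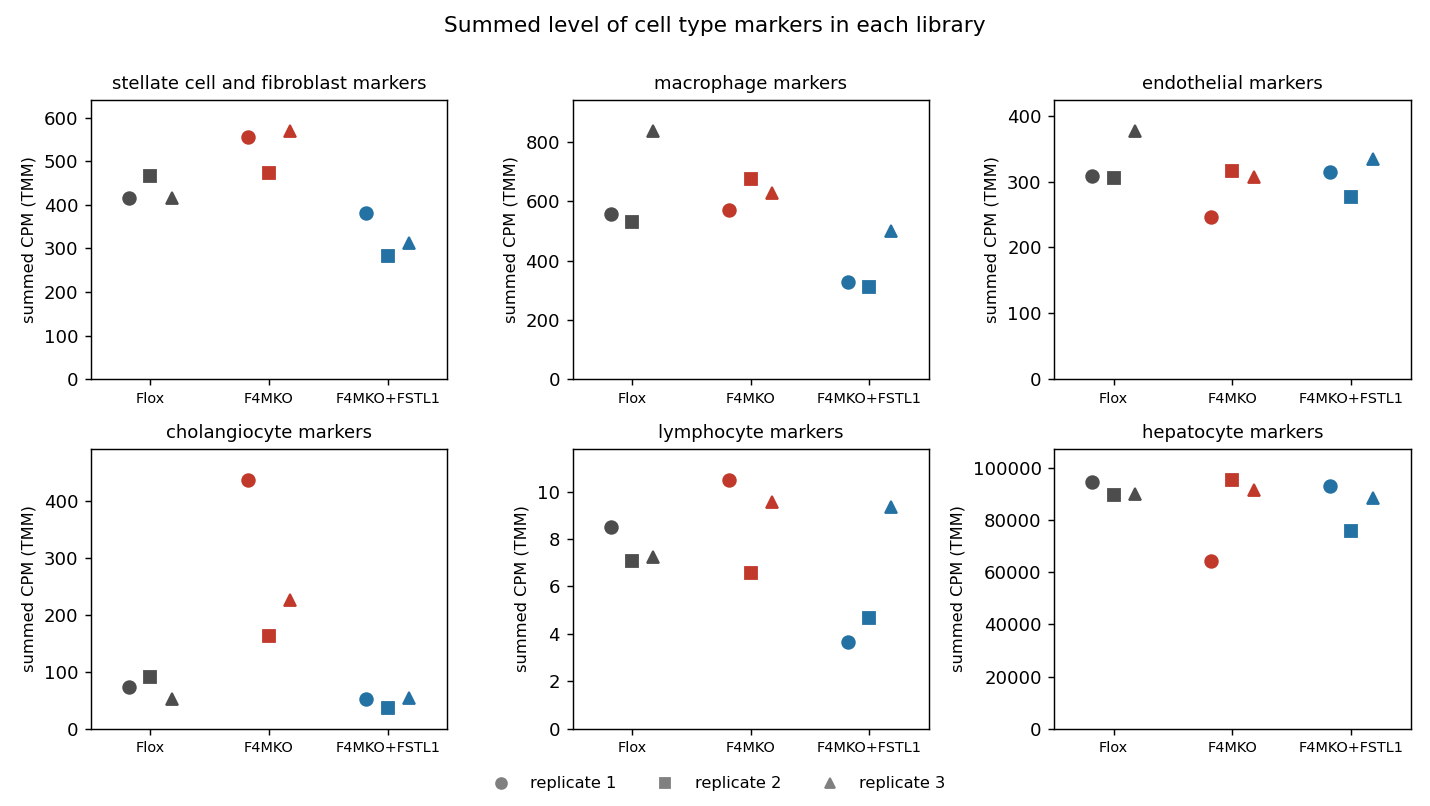
Summed CPM of the markers of 6 cell types in each library, on linear axes that start at 0, with replicates as separate symbols. Cholangiocyte markers reached 163.0 to 436.5 CPM in F4MKO livers against at most 90.6 CPM elsewhere, and F4MKO replicate 1 had the lowest hepatocyte sum at 64257 CPM.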

How the data were processed

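Total RNA of whole liver was sequenced on the BGIseq500 platform with paired-end reads, 1 library per liver sample. Per the submitters' processing notes, the tools were Trim Galore 0.6.7, HISAT2 2.2.1 and featureCounts 2.0.1 with the mm10 genome. The authors deposited whole-number read counts per gene, not normalized. The gene annotation, the use of strand and the treatment of multimapping reads are not given in the sources used here.

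The analysis used edgeR 4.0.16 and limma 3.58.1 in R 4.3.3. Genes were kept by filterByExpr (minimum count 10, minimum total 15), scaled by TMM, and fitted by the quasi-likelihood method with all 9 libraries and a mean per group. P-values were adjusted by Benjamini-Hochberg over 14379 genes. A gene passed at an adjusted p under 0.05 and a fold change above 1.5, the thresholds of the study's methods. Standard errors are the absolute log2 fold change over the root of F. The fit was tested on simulated data. Gene positions and exon lengths came from GENCODE vM21 (GRCm38).

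Alternatives were DESeq2 1.42.0, its size factors in edgeR, no filter, 6 libraries only, a replicate block, no fold threshold, a test against a fold of 1.5, each library left out, and transcript length. All 10 members are named, with up to 5 called genes of each pathway list and comparison by size of change (or the 2 with the smallest p), the 3 genes most correlated with each ligand, and the leading markers. The members and lists were chosen with earlier results of these data known. Replicates of a group differed by more than sampling noise. Single results for 1 cholangiocyte marker and 1 ligand-binding protein are not reported here.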

Additional observations from a re-analysis of the deposited data

How the results depend on the processing

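Each group held 3 libraries, and Tgfb2 had 9 to 21 counts per F4MKO+FSTL1 library. Of the 10 genes, 0 passed in F4MKO compared with Flox livers, but 3 with DESeq2, 3 without the filter on low counts, and 0 to 1 with single libraries left out (Ltbp2 without F4MKO replicate 3, adjusted p = 0.042 from edgeR). Of the 43 pathway genes, 0 passed there, but 5 with DESeq2, 7 without the filter, 4 with the replicate block and 0 to 4 with single libraries left out, with 4 without F4MKO replicate 3. In F4MKO+FSTL1 compared with F4MKO livers, 5 of the 10 genes passed, against 8 without a fold threshold, 2 in the test against a fold of 1.5 (adjusted p = 0.0598 for Tgfb2, 0.0575 for Tgfb3 and 0.149 for Ltbp1 from edgeR) and 3 to 6 with single libraries left out. For the pathway, 16 genes passed, and 8 to 17 with single libraries left out. In F4MKO+FSTL1 compared with Flox livers 0 pathway genes passed, but 2 with DESeq2 and 2 without the filter. Shares of all genes called were taken only for the main fit and for DESeq2. Under the other settings, the replicate block included, the counts describe how calls moved, not whether these genes stood out. The cause of these changes was not tested.

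Signs turned for values near 0. Tgfbr3 in F4MKO compared with Flox livers had log2 fold changes from -0.0080 without F4MKO replicate 3 to 0.26 without Flox replicate 3. In F4MKO+FSTL1 compared with Flox livers, Tgfbr1 had -0.11 to 0.11, Tgfbr2 -0.18 to 0.073 and Tgfbr3 -0.20 to 0.064 with single libraries left out. By longest transcript, 4 of 10 genes kept their rank in F4MKO livers.

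With the replicate number as a block, 0, 5 and 0 of the 10 genes and 4, 14 and 0 pathway genes passed in the 3 comparisons, and Mfap4 lost its call (adjusted p = 0.055 from edgeR). Libraries of the same number come from different mice. The correlations of their deviations from the group means were 0.08, 0.04 and 0.17 for F4MKO with Flox, 0.11, 0.09 and 0.30 for F4MKO+FSTL1 with F4MKO, and 0.00080, -0.10 and 0.21 for F4MKO+FSTL1 with Flox, so the numbers were not taken as pairs. Each library correlated best with its own number in the first 2 of these comparisons, a hint from the data and not the design, and in the third only number 3 did.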

Other observations

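The wider TGF-β superfamily was read from lists chosen after the data were seen, as a description. Of 14 tested ligands (bone morphogenetic proteins, growth differentiation factors and activin subunits), 1 fell and 0 rose with FSTL1, against F4MKO livers, where 11.2% of all genes fell and 3.21% rose. This was Gdf10, with counts of 440, 419 and 338 in Flox, 863, 427 and 556 in F4MKO and 326, 250 and 242 in F4MKO+FSTL1 livers, and a log2 fold change of -0.82 (SE 0.19, adjusted p = 0.0106 by edgeR's quasi-likelihood test), a call lost without F4MKO+FSTL1 replicate 2 (adjusted p = 0.0521). The median log2 fold change of the 14 ligands was -0.12. Inhbc and Inhbe encode activin subunits made by hepatocytes. Inhbc had 0.58 (SE 0.18, adjusted p = 0.0392 by edgeR's quasi-likelihood test), higher without overlap but just below the fold threshold. Inhbe had 0.41 (SE 0.24, adjusted p = 0.247 from the same test), with an overlap. Gdf2, which encodes BMP9, had -0.42 (SE 0.12, adjusted p = 0.0261 from the same test), below the fold threshold.

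Of 4 tested secreted proteins that bind ligands of the superfamily, Fstl1 fell with FSTL1, against F4MKO livers, where 11.2% of all genes fell. This list, too, was chosen after the data were seen. Fstl1, whose product was supplied from muscle in this group, had counts of 138, 186 and 147 in Flox, 456, 234 and 284 in F4MKO and 114, 67 and 83 in F4MKO+FSTL1 livers. The F4MKO+FSTL1 livers lay below both other groups. The log2 fold change against F4MKO was -1.53 (SE 0.22, adjusted p = 0.00171 by edgeR's quasi-likelihood test). Fst, which encodes follistatin, had -1.23 (SE 0.52, adjusted p = 0.117 from the same test).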
